A study of Mus musculus with 10 samples.

Results

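The immediate-early genes Egr1, Egr2, Nr4a1, Nr4a2, Ier2 and Ier3 were followed in primary mouse embryonic fibroblasts after serum was given back. The group takes in all probe sets whose platform annotation gives 1 symbol equal to one of these 6 names. The rule found all 6 genes among the 8251 named on the array and took 8 of its 12422 ordinary probe sets, 2 each for Egr1 and Nr4a2 and 1 for each of the other genes. A filter on low values, set on the mean level over all arrays, left 9316 probe sets for testing and 7 of the 8 members. The one that did not pass was a dim second probe set for Egr1.

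The 10 arrays fell into 6 groups, which crossed a serum state with an RNA pool. All cells were C57/BLACK6, ATF1 +/- and came from e14.5 embryos, so every group carried the same heterozygous Atf1 genotype; the level of Atf1 itself was not analysed here. All cultures were starved for 48 h in 1% dialyzed fetal bovine serum. Serum cultures then had 10% serum for 2 h, and starved cultures had fresh medium with 1% serum for the same 2 h. Polyribosome RNA came from the heavy part of a sucrose gradient (2 or more ribosomes) and had 2 arrays per serum state. Undertranslated RNA came from the light part (free mRNA, mRNA with a subunit, or mRNA with 1 ribosome) and also had 2 arrays per serum state. Cytoplasmic RNA was not put on a gradient and had 1 array per serum state. Gradient cultures received cycloheximide, an inhibitor of ribosome movement, at 100 ug/ml during the last 30 min. Cytoplasmic cultures received none. Cycloheximide and gradient RNA therefore cannot be told apart from cytoplasmic RNA in any comparison between them. In each gradient group, replicate 2 was a culture given 200 uM 4-thiouridine, a nucleoside that enters new RNA, together with 3H-cytidine, and replicate 1 had neither. Gradient fractions of several biological and technical replicates went into each array as 1 pool, and the p-values speak only to how far such pools differ.

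Immediate-early genes are transcribed within minutes of a growth signal, without new protein synthesis, and their mRNAs and proteins are mostly short-lived. Serum acts on them chiefly through the kinases ERK and through serum response factor, which binds CArG boxes, and cyclic AMP signals act through CREB. Egr1 and Egr2 encode zinc finger transcription factors that bind GC-rich sites and are held in check by the corepressors Nab1 and Nab2. Nr4a1 and Nr4a2 encode orphan nuclear receptors that work without a known natural ligand and can pair with retinoid X receptors. Ier2 encodes a small nuclear protein, and Ier3 encodes a short stress-induced protein linked to cell survival.

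The promoter windows below are shown because these genes are known for the sites through which serum and cyclic AMP reach them. Each is the 250 bases before a transcript start in a RefSeq table of the GRCm38.p6 build, read 5′ to 3′ on the strand of the gene. Windows are printed for Egr2, Nr4a1, Nr4a2 and Ier3, and none for Egr1 or Ier2. Egr2 lies at chr10:67537619-67537868 on the plus strand, 1 of 5 windows of this gene, of which 4 held a CArG box. Nr4a1 lies at chr15:101266596-101266845 on the plus strand, Nr4a2 at chr2:57124004-57124253 on the minus strand and Ier3 at chr17:35821463-35821712 on the plus strand. Capitals mark a CArG box (CCATATATGG) or the core of the cyclic AMP response element (TGACG, or CGTCA on the other strand).
Egr2: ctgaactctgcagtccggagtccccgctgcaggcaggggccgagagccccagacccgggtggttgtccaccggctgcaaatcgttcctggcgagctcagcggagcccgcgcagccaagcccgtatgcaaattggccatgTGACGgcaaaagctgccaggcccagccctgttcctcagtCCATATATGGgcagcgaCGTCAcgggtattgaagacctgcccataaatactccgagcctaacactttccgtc
Nr4a1: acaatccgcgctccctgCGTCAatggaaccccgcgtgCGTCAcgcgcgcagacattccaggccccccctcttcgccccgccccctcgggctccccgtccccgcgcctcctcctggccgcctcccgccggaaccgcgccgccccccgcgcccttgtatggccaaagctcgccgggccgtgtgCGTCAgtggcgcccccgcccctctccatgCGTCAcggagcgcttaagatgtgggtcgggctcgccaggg
Nr4a2: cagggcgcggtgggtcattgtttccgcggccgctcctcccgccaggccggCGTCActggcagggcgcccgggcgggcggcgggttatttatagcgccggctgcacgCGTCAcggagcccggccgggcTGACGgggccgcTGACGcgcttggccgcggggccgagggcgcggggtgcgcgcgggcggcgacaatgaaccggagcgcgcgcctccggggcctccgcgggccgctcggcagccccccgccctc
Ier3: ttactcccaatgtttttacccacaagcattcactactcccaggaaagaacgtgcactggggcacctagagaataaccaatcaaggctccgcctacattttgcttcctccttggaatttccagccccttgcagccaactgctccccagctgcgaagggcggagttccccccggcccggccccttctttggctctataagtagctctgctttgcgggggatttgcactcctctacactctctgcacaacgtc

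The Egr2 window held 1 CArG box, whose first base lay 72 bases before the start, and 2 TGACG cores, one on each side of it. This window was chosen among the 5 of the gene for the most CArG boxes and then the most TGACG cores. Its matches to these sites therefore cannot be set against the shares over all windows. Of the 5 Egr2 windows, 4 held a CArG box and 3 held a TGACG core. The windows of Nr4a1 and of Nr4a2 held 4 such cores each and no CArG box, and the Ier3 window held neither. Of the 32851 promoter windows of this length in the table, 1.47% held a CArG box and 17.8% held a TGACG core on either strand. The site of the Egr proteins, searched as GCGNGGGCG on both strands, occurred once in each of the Nr4a1 and Nr4a2 windows and in 4.7% of all windows. The GC box GGGCGG, which can overlap that site, had 3 matches for Nr4a1, 4 for Nr4a2, 1 for Ier3 and none for the Egr2 window printed. It occurred in 2 of the 5 Egr2 windows and in 32.7% of all windows. The full element TGACGTCA (1.55% of all windows) and the Nr4a site AAAGGTCA (1.34%) occurred in none of the windows of these 4 genes.

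The arrays differed in brightness by pool. The median deposited intensity was 45.3 to 54.2 on polyribosome arrays, 5.7 to 8.8 on undertranslated arrays and 19.1 to 19.2 on cytoplasmic arrays. Background, taken on each array as the brightest of 19 control probe sets for bacterial and yeast genes, was 11 to 16.1, 6.7 to 9.6 and 8.2 to 13.8 in the same order of pools. The share of probe sets above it was 68% to 73.5%, 43.4% to 53.5% and 56.3% to 64.7%. Levels were therefore quantile normalized, and each direction below was set beside 3 other scalings. All 17 fibroblast markers measured were above background on the polyribosome and cytoplasmic arrays. On the undertranslated arrays 15 were, and Pdgfrb and Prrx1 were not.

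Egr1, Egr2, Nr4a1, Ier2 and Ier3 were above background on all 10 arrays, starved cultures included. Egr1 had deposited intensities of 8582.8 and 5443.8 in serum polyribosome RNA, against 8062.9 and 5247.8 in starved polyribosome RNA. In undertranslated RNA it had 330.4 and 563.8 after serum, against 847.1 and 1012 in starved cells. In cytoplasmic RNA it had 3021.2 after serum and 3262.5 in starved cells. The serum and starved values of Egr1 overlapped in polyribosome RNA, and the serum values were the lower ones in the other pools on this scale. The second Egr1 probe set, of the _i_at kind, was above background on 3 of the 10 arrays, all of them polyribosome arrays, and gave no test.

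Egr2 had intensities of 9500 and 6460.5 in serum polyribosome RNA, against 8447.4 and 5916.3 in starved polyribosome RNA. Its undertranslated values were 996.1 and 1422.5 after serum and 2266.3 and 2303.2 in starved cells, and its cytoplasmic values were 4007.8 after serum and 3665.1 in starved cells. As for Egr1, the 2 serum states overlapped in polyribosome RNA, and in both genes the unlabelled replicate 1 was the brighter one there.

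Nr4a1 had intensities of 2620.3 and 2574.1 in serum polyribosome RNA, against 2126 and 1655.7 in starved polyribosome RNA, and these values did not overlap. In undertranslated RNA it had 30.3 and 54.1 after serum and 45.7 and 69.2 in starved cells, and in cytoplasmic RNA 1020.5 after serum and 1119 in starved cells. The probe sets of Nr4a2 lay nearest to background. Its _at probe set had 168.8 and 57.6 in serum polyribosome RNA, against 72.1 and 37.6 in starved polyribosome RNA, and 62.2 in serum cytoplasmic RNA, against 31.8 in starved cytoplasmic RNA. In undertranslated RNA it lay at 3.6 and 13.1 after serum and at 4.2 and 8.7 in starved cells, above background on 1 array of each state. Its other probe set, of the _g_at kind, had 109.6 and 47.3 in serum polyribosome RNA, against 49.1 and 31 in starved polyribosome RNA, and was not above background on either serum undertranslated array.

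Ier2 had intensities of 1966.8 and 2661.6 in serum polyribosome RNA, against 1786.8 and 2326.5 in starved polyribosome RNA, which overlapped. Its cytoplasmic value was 1311.6 after serum and 957.9 in starved cells, and its undertranslated values were 34.2 and 35.1 after serum and 44 and 50.6 in starved cells. Ier3 had 4796.5 and 5112.4 in serum polyribosome RNA, against 3759.3 and 3493.1 in starved polyribosome RNA, with no overlap. In undertranslated RNA it had 25 and 97.3 after serum and 83.6 and 246.3 in starved cells, and in cytoplasmic RNA 2339.2 after serum and 2493.8 in starved cells. Ier3 thus had higher serum values in polyribosome RNA and not in cytoplasmic RNA, where each state is 1 array.

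**Figure D1:**
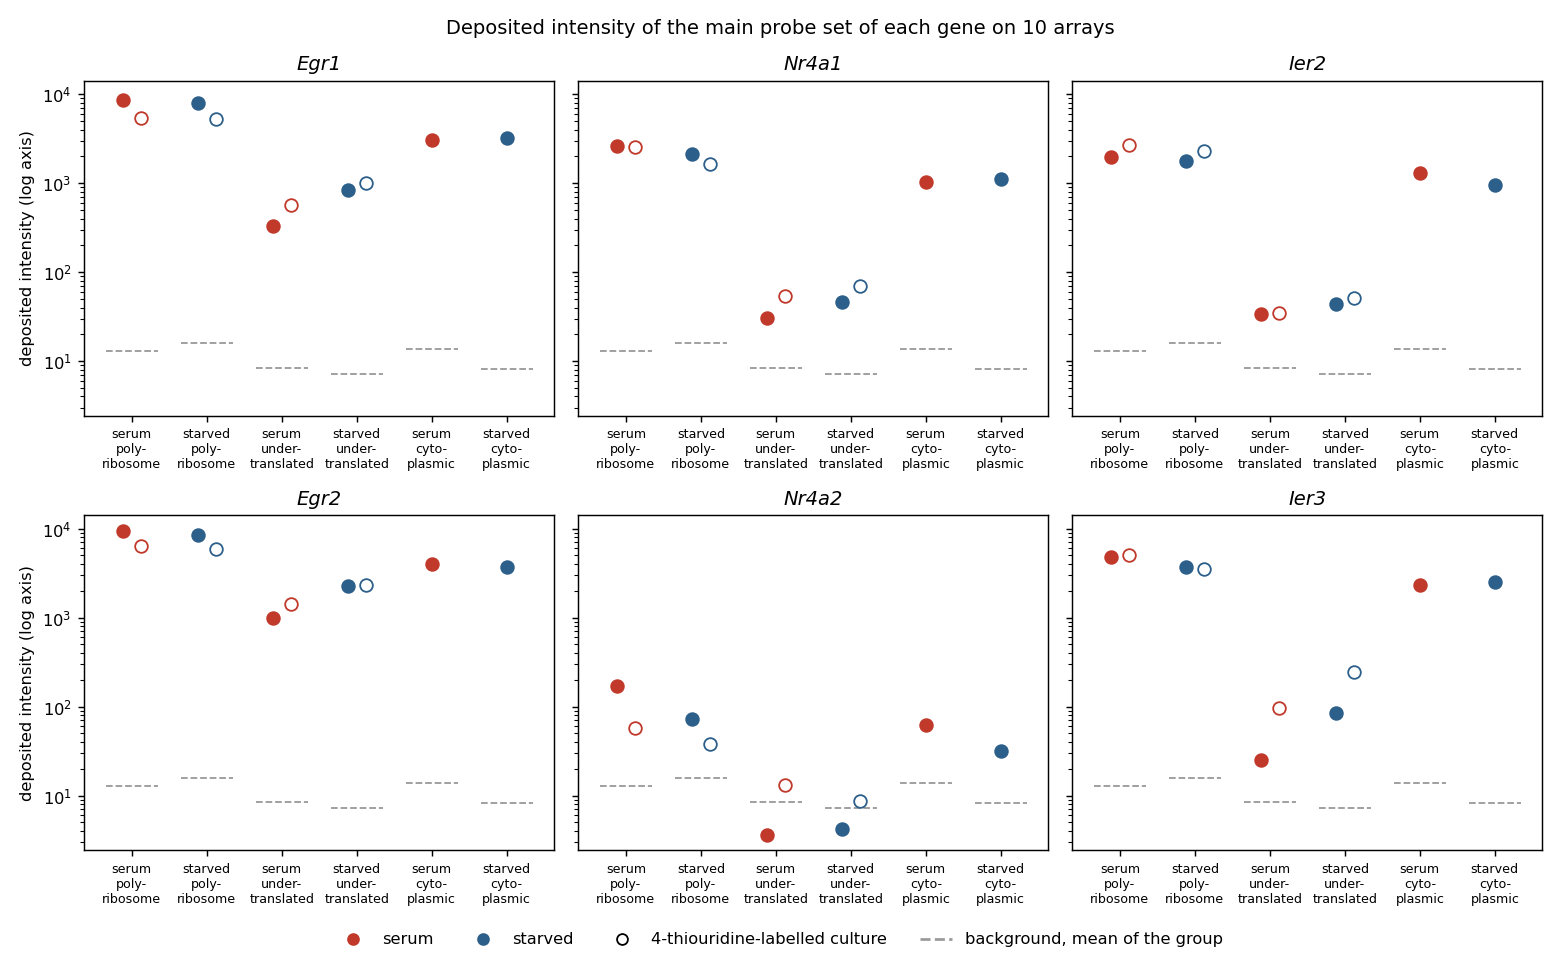
Deposited intensity (log axis) of the main probe set of each gene on the 10 arrays, with serum groups left of starved groups within each RNA pool; open circles are 4-thiouridine-labelled cultures and dashes are background. Each gene is dimmer on every undertranslated array than on the arrays of the other pools, and Nr4a2 comes down to background there.

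On the quantile normalized log2 scale the order of the 6 groups differed between the genes, and neighbours in that order mostly lay within the spread of 2 arrays. Egr1 was highest in cytoplasmic RNA (11.67 after serum and 11.84 in starved cells) and lowest in undertranslated RNA. Its mean there was 10.89 ± 0.19 after serum and 10.90 ± 0.03 in starved cells, and in polyribosome RNA it was 11.40 ± 0.79 after serum and 11.38 ± 0.50 in starved cells (SD, n = 2 each). All 6 group levels of Egr2 lay between 11.63 and 12.18. Nr4a1, Ier2 and Ier3 each had both cytoplasmic arrays on top, the polyribosome groups next with serum above starved, and the undertranslated groups last. Ier3, for example, had 10.61 ± 0.18 in serum polyribosome RNA against 10.00 ± 0.18 in starved polyribosome RNA (SD, n = 2 each). Its undertranslated levels of 8.19 ± 0.83 after serum and 8.87 ± 0.70 in starved cells differed by less than their spread.

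The first comparison asked whether serum changed these genes in polyribosome and cytoplasmic RNA, fitted together over 6 arrays. None of the 7 member probe sets passed an adjusted p of 0.05, where 0.891% of all 9316 tested did (83 probe sets, and 0.666% as rises). Nr4a2 had the largest differences of the group, with log2 0.83 ± 0.30 (SE; 95% interval 0.15 to 1.51; adjusted p = 0.325) for the _at probe set and 0.82 ± 0.26 (0.24 to 1.40; adjusted p = 0.241) for the _g_at probe set. Both probe sets were higher with serum in all 3 same-numbered pairs after quantile normalization, and the fitted differences lay above 0 on the 4 scalings. Their unadjusted limma p-values were 0.0221 and 0.0111, where 1091 of all 9316 tested probe sets had one under 0.05. The share of all probe sets higher in all 3 pairs was not computed. The serum and starved arrays of Nr4a2 still overlapped once pools were put together.

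The other genes had smaller differences that did not pass. Nr4a1 differed by log2 0.39 ± 0.19 (SE; 95% interval -0.05 to 0.82; adjusted p = 0.48), with 0.51 and 0.70 in the polyribosome pairs and -0.05 in the cytoplasmic pair. Ier2 differed by 0.38 ± 0.26 (-0.21 to 0.98; adjusted p = 0.628) and was higher with serum in all 3 pairs. Ier3 differed by 0.33 ± 0.21 (-0.14 to 0.81; adjusted p = 0.59), with 0.60 and 0.61 in the polyribosome pairs against -0.22 in the cytoplasmic pair. Egr2 differed by 0.18 ± 0.28 (-0.45 to 0.80) and Egr1 by -0.045 ± 0.29 (-0.71 to 0.62). Scaling by the hybridization controls put Egr2, Nr4a1, Ier2 and Ier3 slightly below 0, at -0.14 to -0.0115. The median over all tested probe sets was -0.386 with that scaling, below each of these genes. Egr1 was slightly above 0 with the values as deposited and with median centring. The intervals of these 5 genes each held changes of either sign, so at this number of arrays no direction was detectable.

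In the same comparison 5 of 11 tested macrophage markers rose, where 0.666% of all tested probe sets rose. Their summed level was 1240.0 to 1619.5 in serum polyribosome RNA against 476.9 to 501.1 in starved polyribosome RNA, and 775.1 in serum cytoplasmic RNA against 371.5 in starved cytoplasmic RNA. Of the 15 measured, Aif1 and Itgam were not above background on any array of these 4 groups. The part of such cells in the members' values was not tested. In bulk RNA, fewer cells of a type and less RNA per cell cannot be told apart.

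In undertranslated RNA none of the 7 member probe sets passed for serum, where 1.07% of all tested probe sets did (100 probe sets). The fit shared a common spread over all gradient groups, although the replicates did not agree equally well. Their median SD was 0.562 in serum and 0.337 in starved undertranslated RNA (r = 0.792 and 0.89). In polyribosome RNA it was 0.204 after serum and 0.2 in starved cells. With undertranslated arrays alone no probe set was called. Ier3 differed by log2 -0.68 ± 0.42 (SE; 95% interval -1.64 to 0.28; adjusted p = 0.395) and was lower with serum in both pairs, at -0.77 and -0.59. It was -0.09 without serum undertranslated replicate 1 and -0.18 without starved undertranslated replicate 2. Without replicate 2 of serum or replicate 1 of starved undertranslated RNA it was -1.26 and -1.17. The 2 probe sets of Nr4a2 went opposite ways, at 0.59 ± 0.69 and -0.55 ± 0.49, both near or below background there. Nr4a1 (0.29 ± 0.23), Ier2 (0.30 ± 0.41) and Egr2 (0.01 ± 0.34) lay above 0 and Egr1 (-0.01 ± 0.35) just below it after quantile normalization. With the values as deposited, median centring or hybridization control scaling, Egr1, Egr2, Nr4a1 and Ier2 all lay below 0, and as deposited Egr1 was at -1.10, Egr2 at -0.94 and Ier3 at -1.51, beside a median of -0.41 over all tested probe sets.

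**Figure D2:**
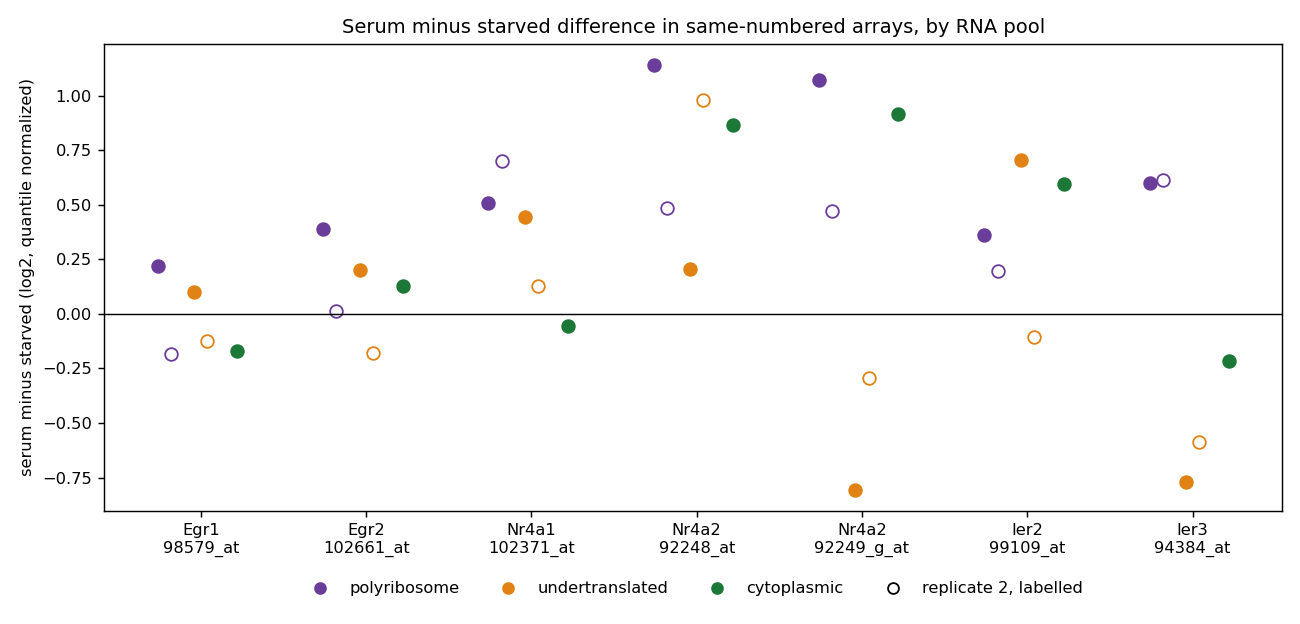
Serum minus starved difference (log2, quantile normalized) between same-numbered arrays for the 7 tested probe sets, in polyribosome (2 pairs), undertranslated (2 pairs) and cytoplasmic RNA (1 pair); open circles are the labelled cultures. Nr4a2 lies highest in polyribosome pair 1 and in the cytoplasmic pair, Nr4a1 lies highest in polyribosome pair 2, and Ier3 is near 0.6 in both polyribosome pairs and below 0 in both undertranslated pairs.

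Whether serum changed the difference between polyribosome and undertranslated RNA was tested as an interaction over the 8 gradient arrays. It was called for none of the members and for 0% of all 9316 probe sets with limma, where 720 had an unadjusted p under 0.05. Ier3 had an interaction of log2 1.29 ± 0.59 (SE; 95% interval -0.07 to 2.64; adjusted p = 0.663), with a polyribosome excess of 2.41 after serum and 1.13 in starved cells. The _g_at probe set of Nr4a2 had 1.32 ± 0.69 (adjusted p = 0.699), whereas its _at probe set had 0.22 ± 0.98. Egr1, Egr2, Nr4a1 and Ier2 had interactions between -0.02 and 0.32, and these rested on the scaling. As deposited they were 1.17 for Egr1, 1.09 for Egr2, 0.93 for Nr4a1 and 0.60 for Ier2, beside a median of 0.35 over all tested probe sets, and none was called. With hybridization control scaling they were 0.78, 0.70, 0.54 and 0.21 in the same order of genes.

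The largest contrast within the group was in polyribosome loading. Averaged over both serum states, Ier3, Ier2 and Nr4a1 were higher in polyribosome than in undertranslated RNA, and Egr2 was not called. Ier3 differed by log2 1.77 ± 0.30 (SE; adjusted p = 0.00147), Ier2 by 1.54 ± 0.29 (adjusted p = 0.0025) and Nr4a1 by 1.31 ± 0.16 (adjusted p = 0.000301), and for each of these the 4 polyribosome arrays lay above the 4 undertranslated arrays. These 3 calls among 7 member probe sets stand beside 54.2% of all tested probe sets called in either direction and 28.7% called higher. The share of all tested probe sets without overlap between these pools was not computed. Egr1 differed by 0.50 ± 0.25 (95% interval -0.07 to 1.07; adjusted p = 0.119) and was not called. It was called with the replicate block (adjusted p = 0.041), with median centring (0.93, adjusted p = 0.00742) and without serum polyribosome replicate 2 (0.78, adjusted p = 0.0143). Egr2 differed by -0.06 ± 0.24 (-0.62 to 0.49; adjusted p = 0.838). Nr4a2 had 0.63 ± 0.49 and 0.14 ± 0.35 for its 2 probe sets, neither called and each above background on 2 of the 4 undertranslated arrays.

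On the deposited scale the ratio of polyribosome to undertranslated intensity between same-numbered arrays of 1 state was 2.57 to 9.54 for Egr2 and 5.19 to 26 for Egr1. It was 23.9 to 86.5 for Nr4a1, 40.6 to 75.8 for Ier2 and 14.2 to 192 for Ier3. The whole array moved as well: the median of all tested probe sets was log2 3.00 higher in polyribosome RNA as deposited, 3.31 with hybridization control scaling and 0.54 with median centring. On the first 2 of these scalings all 7 members were called. Set against those medians, as deposited, Ier2 lay 2.69 above, Ier3 2.62, Nr4a1 2.49, Egr1 0.40 and Nr4a2 0.18 (the _at probe set) above, and the second Nr4a2 probe set 0.38 and Egr2 0.83 below. The actin probe sets for the 3′ and the 5′ end of the mRNA had a ratio of 11.5 to 21.1 on polyribosome arrays and 23.6 to 137 on undertranslated arrays, and the Gapdh ratio was 6.11 to 20.9 against 3.7 to 6.81. The part of these end ratios in the loading values was not tested.

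**Figure D3:**
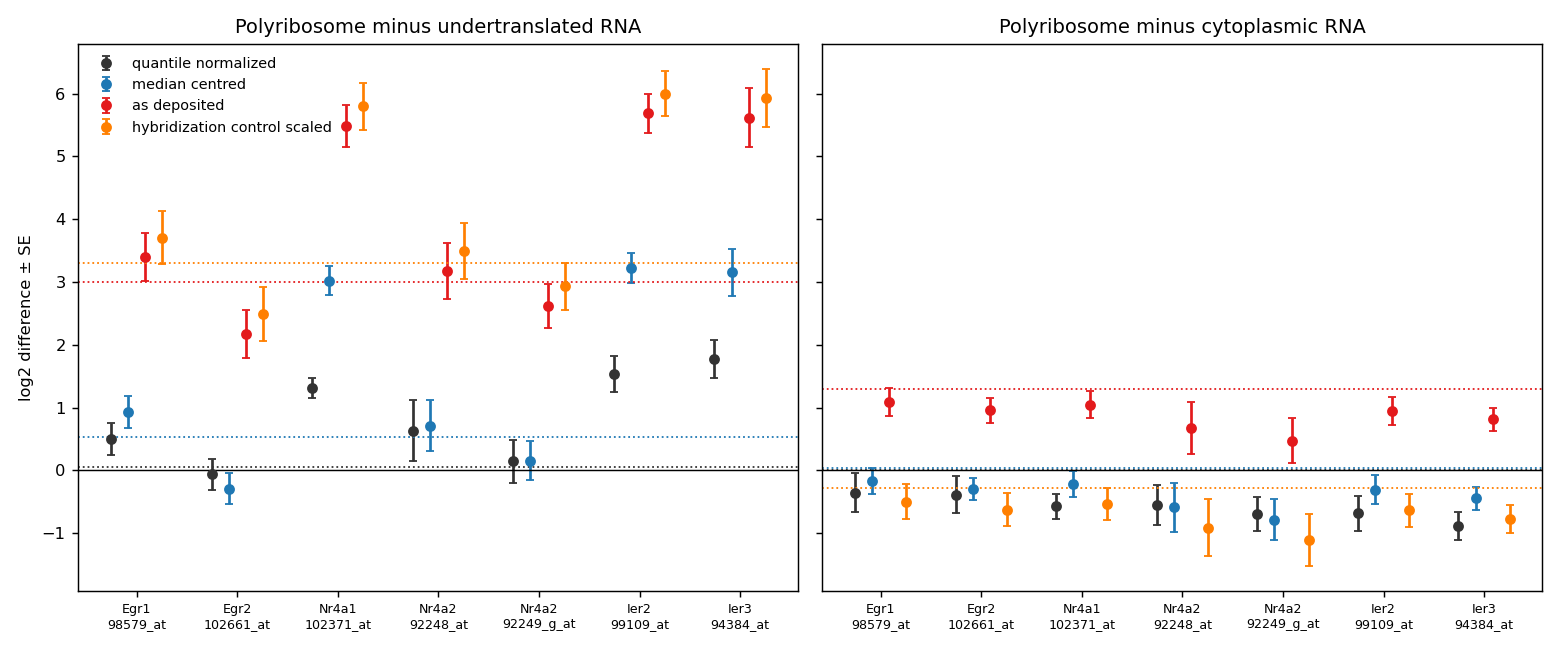
Log2 difference ± SE for polyribosome minus undertranslated RNA (8 arrays) and polyribosome minus cytoplasmic RNA (6 arrays) for each tested probe set under 4 scalings; dotted lines give the median of all tested probe sets under each. Nr4a1, Ier2 and Ier3 lie above the median of each scaling in the first panel, Egr2 lies below it, and in the second panel all values lie below their medians.

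A difference between 2 probe sets taken within 1 array does not change when a whole array is multiplied by a factor, though it does change under quantile normalization. Its own size cannot be read, but its shift between pools can be compared. This comparison, on the deposited values, was added after the data were seen. The log2 value of Nr4a1 minus that of Egr2 averaged -1.75 ± 0.29 on the polyribosome arrays and -5.07 ± 0.38 on the undertranslated arrays (SD, n = 4 each), a shift of 3.31. The same shift against Egr2 was 3.51 for Ier2, 3.45 for Ier3 and 1.22 for Egr1. For each of these the 2 pools did not overlap. A two-sided exact permutation test gave p = 0.0286, the smallest that 4 against 4 arrays can give (0.0429 after Benjamini-Hochberg adjustment over the 15 pairs of genes). That test took the arrays as independent and shuffled them without regard to serum state or replicate number.

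Against Egr1, the shift was 2.29 for Ier2, 2.22 for Ier3 and 2.09 for Nr4a1, again with no overlap of the pools and the same exact permutation p. Among the 5 genes above background on all arrays, 7 of 10 pairs did not overlap. The 10 pairs share 5 genes, so they are not independent. The share over all pairs of probe sets was not computed, here or on the quantile normalized levels below. By the fit on quantile normalized levels, 54.2% of all single probe sets tested were called between these pools. Among Nr4a1, Ier2 and Ier3 the shifts were 0.07 to 0.20, smaller than the SD between undertranslated arrays (0.352 to 1.13), with exact permutation p of 0.486 to 0.943. Nr4a2 was above background on 2 of the 4 undertranslated arrays, so shifts against it are not given. On the quantile normalized levels 4 of the 10 pairs did not overlap, those of Egr2 with the other genes. There the shift against Egr2 was 1.60 for Ier2, 1.84 for Ier3, 1.37 for Nr4a1 and 0.56 for Egr1. Against Egr1 it was 1.04 for Ier2, 1.27 for Ier3 and 0.81 for Nr4a1, with the pools overlapping.

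**Figure D4:**
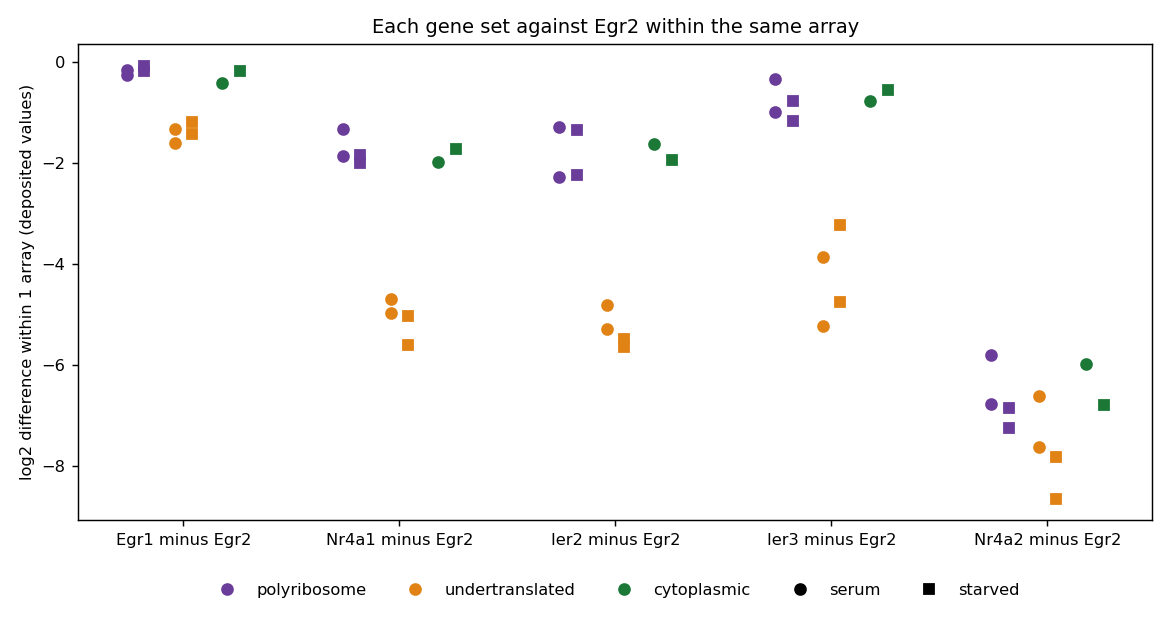
Log2 difference of each gene minus Egr2 within the same array (deposited values), by RNA pool, with circles for serum and squares for starved arrays. Undertranslated arrays lie clearly below polyribosome arrays for Nr4a1, Ier2 and Ier3, by 1.22 on average for Egr1, and overlap them for Nr4a2, which is at or near background there, while cytoplasmic arrays lie beside the polyribosome ones.

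In polyribosome RNA set against cytoplasmic RNA, Ier3 was lower by the test and the other members were not called. Ier3 differed by log2 -0.89 ± 0.22 (SE; 95% interval -1.39 to -0.38; adjusted p = 0.0182), beside 26.4% of all tested probe sets called in either direction and 11.9% called lower. Ier2 differed by -0.69 ± 0.28 (adjusted p = 0.1), Nr4a1 by -0.58 ± 0.20 (adjusted p = 0.0643), Egr2 by -0.39 ± 0.29 and Egr1 by -0.36 ± 0.31, and Nr4a2 by -0.55 and -0.69. The Ier3 call rested on the starved cytoplasmic array: without it the value was -0.48 (adjusted p = 0.261), and it was -0.45 (adjusted p = 0.108) with median centring. As deposited all 7 members were higher in polyribosome RNA, by 0.47 to 1.09, each below the median of 1.30 over all tested probe sets. On that scale Ier3 was called higher (0.81 ± 0.18, limma adjusted p = 0.00205), opposite to the call above. Pool and cycloheximide cannot be told apart here.

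Cultures labelled with 4-thiouridine and 3H-cytidine were set against unlabelled cultures in the 4 gradient groups. No probe set was called, which makes 0% of 9316, and 602 had an unadjusted p under 0.05 with limma. Egr2 had the smallest p of the group, at log2 -0.58 ± 0.14 (SE; unadjusted p = 0.00389; adjusted p = 0.693), lower with label in all 4 groups after quantile normalization. Egr1 differed by -0.54 ± 0.17 (adjusted p = 0.693), with -1.11 and -0.71 in the polyribosome groups and -0.28 and -0.05 in the undertranslated groups. Ier3 differed by 0.67 ± 0.19 (adjusted p = 0.693) and was higher with label in all 4 groups on that scale. As deposited, the ratio of labelled to unlabelled intensity in undertranslated RNA was 1.43 (serum) and 1.02 (starved) for Egr2 and 1.71 and 1.19 for Egr1, all above 1, and that of Ier3 was 0.929 in starved polyribosome RNA. The Gapdh ratio of 3′ to 5′ probe sets differed alongside in polyribosome RNA, at 6.11 to 6.24 in labelled and 14.4 to 20.9 in unlabelled cultures, and its part in these values was not tested. With the values as deposited the fitted difference was -0.13 for Egr2, -0.06 for Egr1 and 0.86 for Ier3.

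Across the 10 arrays the levels of Nr4a1, Ier2 and Ier3 ran together, with Pearson correlations of 0.924 (Nr4a1 and Ier2), 0.919 (Nr4a1 and Ier3) and 0.806 (Ier2 and Ier3). Egr1 and Egr2 correlated at 0.759, while Egr2 correlated with Nr4a1 at 0.201, with Ier2 at 0.105 and with Ier3 at 0.0775. These values describe 10 arrays that share their pools and scaling, so any 2 genes that differ between pools in the same way correlate. By the same measure the other genes nearest to Nr4a1 were Errfi1 (0.979), Actg1 (0.976) and Dlgap4 (0.976). Those nearest to Ier2 were Lrp1 (0.985), Lgals3bp (0.974) and Efna1 (0.971), and those nearest to Ier3 were Gsto1 (0.984), Ly6e (0.977) and Ilk (0.977). Egr1 was nearest to Ash2l (0.948), Pou6f1 (0.921) and Wsb1 (0.892), and Nr4a2 (the _at probe set) to Dhcr7 (0.909), Adam19 (0.897) and Cntfr (0.891). Egr2 had the weakest neighbours, Slc35d1 (0.814), Gsk3a (0.79) and Rhou (0.782).

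Of 13 relatives and partners listed, 7 were measured and 6 passed the filter, and the retinoid X receptor gene Rxrg did not. None of the 6 passed for serum in either fit. Nab1 and Nab2, the corepressors that bind Egr proteins, differed by log2 -0.39 ± 0.24 and -0.30 ± 0.20 with serum in polyribosome and cytoplasmic RNA. In polyribosome against cytoplasmic RNA, Nab2 fell by 2.21 on the log2 scale (adjusted p = 0.000558), with intensities of 61.4 and 69.7 in serum polyribosome RNA and 86.3 and 115.7 in starved polyribosome RNA, against 169.9 in serum and 211.3 in starved cytoplasmic RNA. It was lower in polyribosome RNA on the deposited scale too. Nab1 rose in the same comparison by log2 1.19 ± 0.25 (adjusted p = 0.00854). In polyribosome against undertranslated RNA none of the 6 was called. Rxra and Rxrb, partners of the Nr4a receptors, differed by 0.19 ± 0.32 and 0.58 ± 0.64 there. Sp1, a GC box factor whose sites overlap those of Egr1, differed by 0.48 ± 0.36 and Wt1, a zinc finger factor with Egr-like fingers, by -0.98 ± 0.40. Sp1 was above background on 2 of the 4 undertranslated arrays, and Wt1 on 1 of them and on 3 of the 4 polyribosome arrays.

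Among 57 other immediate-early genes tested, 6 rose with serum in polyribosome and cytoplasmic RNA and none fell, where 0.666% of all tested probe sets rose, and the median difference was log2 0.36 for the 6 member genes, 0.28 for these 57 and -0.01 for all tested probe sets. The 3 largest rises were Plaur, the urokinase receptor (1.73 ± 0.25, adjusted p = 0.0191), Hbegf, a ligand of the EGF receptor (1.61 ± 0.19, adjusted p = 0.00937), and Gadd45b, a stress and growth arrest gene (1.42 ± 0.20, adjusted p = 0.019). Hbegf had intensities of 999.7 and 950.5 in serum polyribosome RNA against 391.2 and 323.7 in starved polyribosome RNA. Its cytoplasmic value was 416.8 after serum and 103.6 in starved cells. In undertranslated RNA Hbegf was the only gene of this list called, at 1.56 ± 0.27 (adjusted p = 0.0429). The SE of that value came from a spread shared with the polyribosome arrays, whose replicates differed less. With undertranslated arrays alone no probe set was called, so the Hbegf call depended on including the polyribosome arrays. Of the textbook target genes of Egr1, 3 of 15 rose in the first fit and the median was 0.17, and of 19 tested genes of the serum response factor, ERK and CREB module none was called for serum in that fit, with a median of 0.19.

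In polyribosome against undertranslated RNA, 15 of the 57 rose and 18 fell, where 28.7% of all tested probe sets rose and 25.5% fell, and the median difference was log2 0.97 for the 6 member genes, -0.08 for these 57 and 0.05 for all tested probe sets. The rises included Dusp6, a phosphatase of ERK (4.27 ± 0.32, above background on 3 of the 4 undertranslated arrays), and Ccn1, a matrix-associated protein (3.16 ± 0.24). Plaur was not above background on any undertranslated array and was at least 2.99-fold higher in polyribosome RNA (adjusted p = 0.00024), with each undertranslated array taken at its lowest level above background or at the measured value where that was higher. The falls included Cited2, a transcriptional coregulator (-2.25 ± 0.24), and Btg1, an antiproliferative gene (-2.18 ± 0.25). Fosl2, an AP-1 subunit, was called lower too, but was above background on 1 of the 4 polyribosome arrays and 3 of the 4 undertranslated arrays. As deposited all 57 lay above 0 in this contrast, 38 of them above the median of all tested probe sets, so the falls are relative to the array as a whole. Of the proteins that bind AU-rich elements, 5 of 9 tested rose in this contrast and none fell, with a median of 1.08, beside the same 28.7% and 25.5% over all tested probe sets.

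In polyribosome against cytoplasmic RNA, 27 of the 57 fell and 2 rose, where 26.4% of all tested probe sets were called and 11.9% fell, and the median difference was log2 -0.56 for the 6 member genes, -0.67 for these 57 and 0.00075 for all tested probe sets. The largest falls were Zfp36, which encodes a protein that binds AU-rich elements (-2.91 ± 0.29), Cebpb, a transcription factor (-2.86 ± 0.24), and Rhob, a small GTPase (-2.68 ± 0.25). Those that rose were Ptgs2, a prostaglandin synthase (0.90 ± 0.19), and Rgs2, a regulator of G proteins (0.83 ± 0.19). As deposited 45 of the 57 lay above 0 in this contrast and 18 above the median of all tested probe sets.

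**Figure D5:**
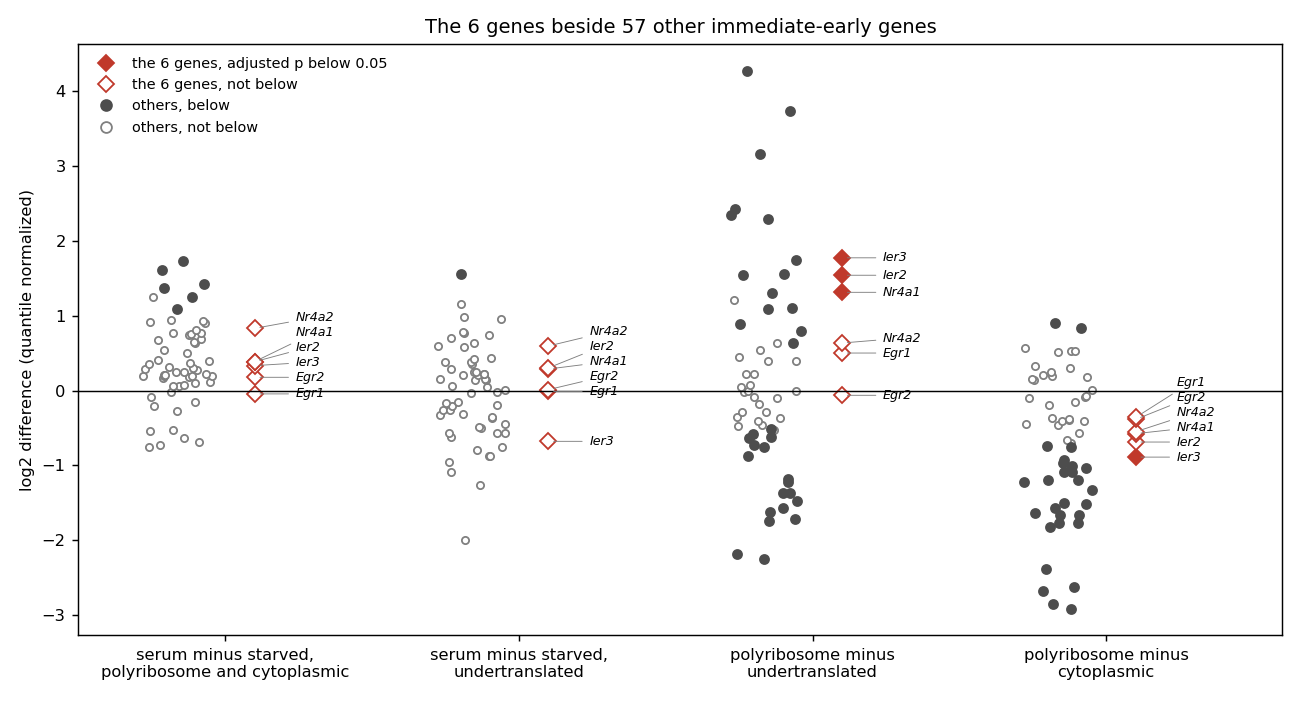
Log2 difference (quantile normalized) of the 6 genes (diamonds) beside 57 other immediate-early genes (circles) in 4 comparisons, with filled symbols for an adjusted p below 0.05. None of the 6 is filled for serum, while Nr4a1, Ier2 and Ier3 are filled and above 0 in polyribosome against undertranslated RNA and Ier3 is filled and below 0 in polyribosome against cytoplasmic RNA.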

How the data were processed

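Each array measured RNA of 1 pool from primary mouse embryonic fibroblasts. The authors deposited linear intensity values, with 1 value for every probe set on an array. How probes were summarised, any scaling and the genome build: not given in the sources used here. RNA was amplified linearly and labelled with biotin, per the labels' protocols.

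A pseudocount of 1.5 (the 10th percentile of all values) was added before log2, which understates changes of dim genes. The 66 control probe sets of 12488 were left out and the arrays were quantile normalized. Testing needed a mean level above the 25th percentile. Probe sets were named where the platform annotation gave 1 symbol (10833). limma 3.58.1 in R 4.3.3 fitted group means with lmFit and eBayes with a trend, two-sided, with Benjamini-Hochberg adjustment over all 9316 tested probe sets within each comparison. Exact permutation tests used scipy 1.17.1. The precision is limited by the number of arrays. The fits were tested on 9316 simulated probe sets, 100 of them changed by log2 2. The interaction fit recovered 0 of the 100, the label fit 7 and the serum fit in undertranslated RNA 10. Polyribosome against undertranslated RNA recovered 35, polyribosome against cytoplasmic RNA 66 and the serum fit in polyribosome and cytoplasmic RNA 80. The data gave calls for 54.2% of probe sets in polyribosome against undertranslated RNA and 26.4% in polyribosome against cytoplasmic RNA. The simulation changed a far smaller share, so its counts do not give the recovery of these comparisons between pools. At log2 1 recovery was 0 to 38 of 100. A missing call in these fits therefore does not show that a gene was unchanged.

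All member probe sets are named, and all measured relatives. Of the other immediate-early genes, the 3 largest called rises and falls per comparison are named, and for each member the 3 most correlated genes. Members and lists were chosen with earlier results of these data known. Lists with several probe sets per gene use the brightest. The labels give the replicate numbers. Number 2 stands for the labelling treatment throughout the gradient arrays, which is what pairs them. For arrays with one number, the correlation of deviations from the group mean was 0.275 for the 2 polyribosome groups; other pairs of groups gave 0.0171 to 0.0535. Alternatives were the deposited values, median centring, scaling by 9 hybridization controls, pseudocounts of 1 and 4, no filter or the 50th percentile, no variance trend, a replicate block, a pool alone, and each array left out.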

Additional observations from a re-analysis of the deposited data

Results flagged for a closer look

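A pair of results stood out because serum values were the higher ones in both polyribosome pairs and the lower ones in both undertranslated pairs after quantile normalization. The share of all probe sets with this pattern of signs was not computed. On the deposited values Egr1, Egr2, Nr4a1 and Ier2 showed the same pattern, with serum to starved ratios of 1.04 to 1.55 in polyribosome RNA and 0.39 to 0.782 in undertranslated RNA. The serum undertranslated arrays were dimmer as a whole on that scale, with a median change of log2 -0.41 over all tested probe sets. Ier3 had 0.60 and 0.61 in polyribosome RNA and -0.77 and -0.59 in undertranslated RNA on the log2 scale. The difference between these responses was tested as an interaction and was 1.29 ± 0.59 (SE; limma, unadjusted p = 0.0607, adjusted p = 0.663), so it did not pass. It was 0.70 to 1.87 with each array left out. The _g_at probe set of Nr4a2 had 1.07 and 0.47 in polyribosome RNA and -0.81 and -0.29 in undertranslated RNA. Its interaction was 1.32 ± 0.69 (limma, adjusted p = 0.699), and the other Nr4a2 probe set had 0.22. Both serum undertranslated values of the _g_at probe set were not above background.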

How the results depend on the processing

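No member probe set was called for serum in either fit, for the interaction or for the label in any alternative run. The calls of Nr4a1, Ier2 and Ier3 in polyribosome against undertranslated RNA held in every alternative run for that comparison, with 3 or 4 members called when each array was left out. The count was 3 in the reported setting, 7 as deposited and 7 after scaling by hybridization controls (both shift all probe sets), and 4 with median centring or the replicate block, where Egr1 was added (adjusted p = 0.00742 and 0.041). In polyribosome against cytoplasmic RNA 1 member was called as reported, 5 as deposited, 0 with median centring, 2 with the replicate block (Ier2 added) and 0 to 2 with each array left out. The count of 0 came without the starved cytoplasmic array, and the counts of 2 came without serum polyribosome replicate 1 or starved polyribosome replicate 2. The 5 members called as deposited in that comparison were higher in polyribosome RNA, whereas the reported call was lower. The replicate block changed no other member call. Over all 9316 probe sets, polyribosome against undertranslated RNA gave 5052 calls as reported, 8471 as deposited and 8790 with hybridization control scaling, and polyribosome against cytoplasmic RNA gave 2463, 7090 as deposited and 351 without the serum cytoplasmic array. The serum response in polyribosome and cytoplasmic RNA gave 83 calls, 24 with no filter, 19 with no variance trend, 149 with the replicate block, 5 in polyribosome arrays alone and 5 to 118 with each array left out. The serum response in undertranslated RNA gave 100 calls, 22 as deposited, 20 with hybridization control scaling, 52 with the replicate block, 0 in undertranslated arrays alone and 0 to 2302 with each array left out, the highest without serum undertranslated replicate 2. Without that array the interaction gave 902 calls, none of them a member. In the values below the cause was not tested. In the serum response in polyribosome and cytoplasmic RNA, the sign of Egr1 turned as deposited (0.0107), with median centring (0.079) and in polyribosome arrays alone (0.0177). With hybridization control scaling signs turned for Egr2 (-0.14), Nr4a1 (-0.0127), Ier2 (-0.0193) and Ier3 (-0.0115), beside a median of -0.386 over all tested probe sets. With each array left out, the sign turned for Egr1 -0.38 to 0.25, Egr2 -0.12 to 0.46. In the serum response in undertranslated RNA, signs turned as deposited Egr2 was -0.94, Nr4a1 was -0.46, Ier2 was -0.43 and with median centring Egr2 was -0.71, Nr4a1 was -0.23, Ier2 was -0.20 and with hybridization control scaling Egr2 was -0.89, Nr4a1 was -0.41, Ier2 was -0.38. With each array left out, the sign turned for Egr1 -0.15 to 0.13, Egr2 -0.24 to 0.26, Ier2 -0.16 to 0.76, Nr4a2 (_at) -0.24 to 1.43. In polyribosome against undertranslated RNA, signs turned as deposited Egr2 was 2.17 and with hybridization control scaling Egr2 was 2.48. With each array left out, the sign turned for Egr2 -0.32 to 0.19, Nr4a2 (_g_at) -0.0894 to 0.37. In the interaction, signs turned as deposited Ier2 was 0.60 and with median centring Ier2 was 0.47 and with hybridization control scaling Ier2 was 0.21. With each array left out, the sign turned for Nr4a2 (_at) -0.62 to 1.06, Ier2 -0.48 to 0.44, Egr1 -0.53 to 0.59, Egr2 -0.32 to 0.71. In polyribosome against cytoplasmic RNA, signs turned as deposited Egr1 was 1.09, Egr2 was 0.96, Nr4a1 was 1.05, Nr4a2 (_at) was 0.67, Nr4a2 (_g_at) was 0.47, Ier2 was 0.95, Ier3 was 0.81 and with the replicate block Egr1 was 0.0954, Egr2 was 0.0351. In the label comparison, signs turned as deposited Nr4a2 (_at) was -0.0206 and with median centring Nr4a2 (_at) was -0.092 and with hybridization control scaling Nr4a2 (_at) was -0.0635. With each array left out, the sign turned for Nr4a2 (_at) -0.27 to 0.68, Ier2 -0.12 to 0.47. Dim values near background, as for Nr4a2 in undertranslated RNA, and 1 cytoplasmic array per serum state limit what can be read.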
